A study of Rattus norvegicus with 6 samples.

Results

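Genes of 6 enzymes that handle small halogenated methanes, their products or related reactive intermediates were followed in rat liver: Cyp2e1, Gstt1, Gstt2, Gstt3, Gstz1 and Ephx1. They were chosen by name, with earlier results of these data known. Their probes were found through the RefSeq accession that the array gives each probe. Probes were matched for 5 of the 6 genes, out of 15284 gene symbols with a matched probe, and Gstt3 was not analysed here. Liver RNA came from 6 male Sprague-Dawley (Crl:CD(SD)) rats bought at 5 weeks of age and kept on a basal diet with tap water, and each liver was hybridised to its own 1-colour Agilent array. In 3 rats the treatment was bromodichloromethane at 200 mg/kg/day, and in the other 3 it was corn oil, with no number for the dose. One label field times the measurement at 28 days and another describes dosing over 9 weeks, and this conflict was not resolved. The question is how the chemical changes liver gene expression.

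Bromodichloromethane is a trihalomethane formed when water is disinfected with chlorine. Its breakdown in liver starts along competing routes. CYP2E1, an ethanol-inducible P450 of the hepatocytes around the central vein, oxidises it to a reactive dihalocarbonyl. Theta class glutathione transferases join it to glutathione, which gives intermediates that can bind DNA. GSTZ1, the zeta transferase, isomerises maleylacetoacetate in tyrosine breakdown and also converts dihaloacetic acids. EPHX1, the microsomal epoxide hydrolase, opens reactive epoxides to diols; it is not an enzyme of haloform oxidation itself.

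Promoter windows in the RefSeq table of the rat assembly GRCr8 were matched by symbol for 4 of the 6 genes, with 5 windows in all. The windows of Ephx1, the gene that changed, are printed for both of its listed start sites, and that of Gstz1 because it is the one other member window with a match to the antioxidant response motif. Each holds the 250 bases before the start site, 5′ to 3′ on the strand of the gene. Capitals mark matches to TGACNNNGC, the core of the antioxidant response element, or to TGANTCA, the AP-1 motif; one capital run holds both, overlapping.
Ephx1 upstream start, chr13:95275853-95276102, minus strand: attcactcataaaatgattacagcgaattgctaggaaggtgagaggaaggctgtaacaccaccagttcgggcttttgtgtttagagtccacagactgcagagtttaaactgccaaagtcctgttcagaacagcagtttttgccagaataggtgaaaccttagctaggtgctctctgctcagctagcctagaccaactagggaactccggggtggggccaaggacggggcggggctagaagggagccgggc
Ephx1 internal start, chr13:95263118-95263367, minus strand: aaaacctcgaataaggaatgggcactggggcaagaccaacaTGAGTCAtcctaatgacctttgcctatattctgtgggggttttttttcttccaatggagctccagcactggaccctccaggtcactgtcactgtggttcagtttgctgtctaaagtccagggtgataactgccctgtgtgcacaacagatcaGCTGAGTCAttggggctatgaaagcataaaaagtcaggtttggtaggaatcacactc
Gstz1 start, chr6:112525356-112525605, plus strand: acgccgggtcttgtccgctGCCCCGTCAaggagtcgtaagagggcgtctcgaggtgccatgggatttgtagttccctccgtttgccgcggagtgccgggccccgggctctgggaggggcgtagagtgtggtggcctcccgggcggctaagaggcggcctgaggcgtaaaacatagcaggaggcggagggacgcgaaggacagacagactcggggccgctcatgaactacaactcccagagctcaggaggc
Searched on both strands, TGACNNNGC was found once in the internal Ephx1 window, 57 to 49 bases before the start, and once in the Gstz1 window, 231 to 223 bases before it. It was present in 10.1% of the 33469 windows of that length in the table. TGANTCA was found at 209 to 203 and at 55 to 49 bases before the internal Ephx1 start, and 6.34% of all windows held it. The upstream Ephx1 window held neither motif. These matches describe letters, and which Ephx1 start site the livers used was not measured.

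No member probe was saturated or marked as an outlier, and all 6 probes of the 5 genes were well above background on all 6 arrays. The share of the 61657 probes clear of background was 61.3% to 63.9% on corn oil arrays and 65.3% to 66.9% on bromodichloromethane arrays. Signals are given as multiples of the 75th percentile of the array, and a fold change is bromodichloromethane over corn oil. The 3 corn oil arrays and treated replicate 1 shared slide 1, while the arrays of treated replicates 2 and 3 were on slide 2 and scanned apart. Slide and treatment can therefore be separated only through treated replicate 1. The labels describe separate animals. All 8 hepatocyte markers looked up were measured. In tissue RNA, fewer cells of a type and less RNA per cell cannot be told apart.

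Ephx1 was the only one of the 5 measured enzymes that passed the test; it was 2.18-fold higher in treated livers. Its signal was 98.5, 124 and 78.8 in the 3 bromodichloromethane livers, against 42.3, 39.3 and 55.7 in the 3 corn oil livers. Every treated liver lay above every corn oil liver, so the groups did not overlap, as was the case in that direction for 18.4% of all features. The means were 100.5 ± 22.8 in bromodichloromethane livers and 45.7 ± 8.71 in corn oil livers (SD, n = 3 each). The log2 fold change was 1.13 (SE 0.21, 95% interval 0.62 to 1.63, limma adjusted p = 0.029). In the whole comparison 1727 of 28995 features passed in that direction, which is 5.96%, and 375, or 1.29%, also reached 2-fold. By size of rise Ephx1 ranked 481 among the 28995 features. One called gene among so few, beside 9.36% of all features called in either direction, says nothing about the group as a whole.

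**Figure D1:**
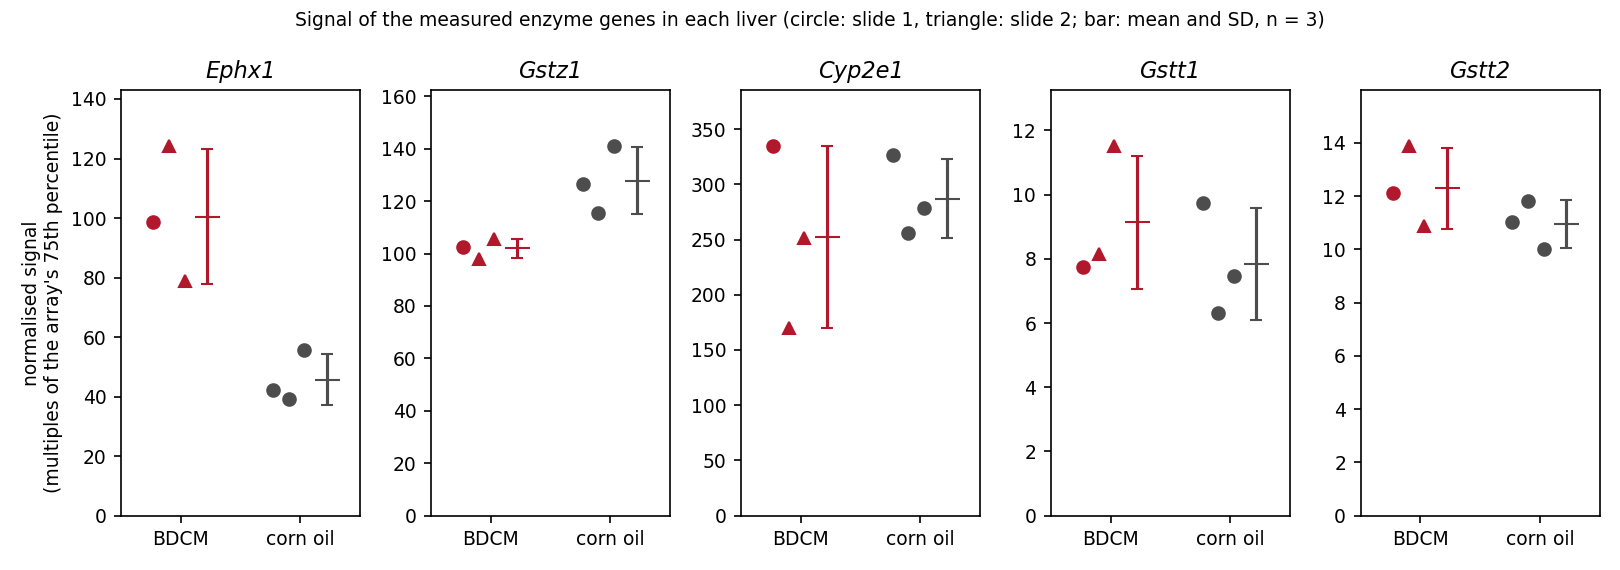
Normalised signal of the 5 measured genes (y axis, multiples of the 75th percentile of each array, starting at 0) in each liver, with bromodichloromethane (BDCM) on the left of each panel and corn oil on the right; circles are arrays of slide 1, triangles arrays of slide 2, and bars the mean and SD of 3 livers. The lowest treated liver for Ephx1 is at 78.8 and the highest corn oil liver at 55.7, Gstz1 separates the groups the other way, and the other 3 genes overlap.

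The size of the Ephx1 difference was similar on slide 1 alone, at 1.12, where the single treated array gave an adjusted p of 0.17. With 1 liver left out it lay between 0.96 and 1.29, and the call ended without corn oil replicate 1 or 2 or treated replicate 1 or 2 (adjusted p = 0.075, 0.093, 0.074 and 0.087).

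Other enzymes that dispose of epoxides and reactive carbonyls were followed as a list of 8, of which 7 were measured. Of these, 2 rose, none fell and 5 did not pass, where 5.96% of all features passed as higher and 3.41% as lower. The lists hold only genes with a symbol, and among the 11405 features with a symbol 477 passed as higher and 426 as lower. The median log2 fold change was 0.40, against 0.0014 over all features. Akr7a3, an aldehyde reductase that acts on aflatoxin dialdehyde, had signals of 186, 327 and 220 in bromodichloromethane livers, against 33.4, 38.5 and 80.6 in corn oil livers. The rise was 5.05-fold, or 2.34 in log2 terms (SE 0.38, adjusted p = 0.021). Akr7a3 passed in 2 of the 6 fits that left out 1 liver, and did not pass with slide as a fixed block. Nqo1, the quinone oxidoreductase, stood at 5.22, 4.17 and 5.68 in treated livers and at 3.28, 3.17 and 2.69 in corn oil livers. This amounts to 0.71 on the log2 scale, with SE 0.15 and adjusted p = 0.038, but Nqo1 passed in 0 of the 6 fits that left out 1 liver. As for Ephx1 and 18.4% of all features, treated livers lay above corn oil livers without overlap for both genes.

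Neither of the measured theta class glutathione transferases passed the test. Gstt1 had signals of 7.76, 8.15 and 11.5 in bromodichloromethane livers, against 9.75, 6.31 and 7.45 in corn oil livers. Treated replicate 3 was the highest of the 6 and corn oil replicate 2 the lowest, and the groups overlapped. Its log2 fold change was 0.22 (SE 0.22, adjusted p = 0.56), with a 95% interval from -0.31 to 0.75. On slide 1 alone the value was 0.0088.

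Gstt2, a theta transferase that acts on aryl sulfates, was read by 2 probes. The brighter gave 12.1, 13.9 and 10.9 in treated livers and 11.0, 11.8 and 10.0 in corn oil livers. The dimmer gave 3.93, 4.10 and 3.73 in treated livers and 3.44, 3.93 and 3.31 in corn oil livers. Treated replicate 2 was the highest liver on both probes and corn oil replicate 3 the lowest on both, with overlapping groups. The probes gave log2 fold changes of 0.16 (95% interval -0.14 to 0.46) and 0.14 (-0.10 to 0.38), and neither passed (adjusted p = 0.45 and 0.42).

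With scaling by spiked-in control transcripts the median of all features stood at 0.48 in place of 0.0014, and on that scale Gstt1 and Gstt2 were at 0.71 and 0.65 and passed (adjusted p = 0.044 and 0.029). On the same scale 12685 of 28995 features passed as higher. Both values lie above that median by the same amounts as in the percentile scaling. A statement that the theta genes did not pass is therefore one about their level relative to the other transcripts.

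**Figure D2:**
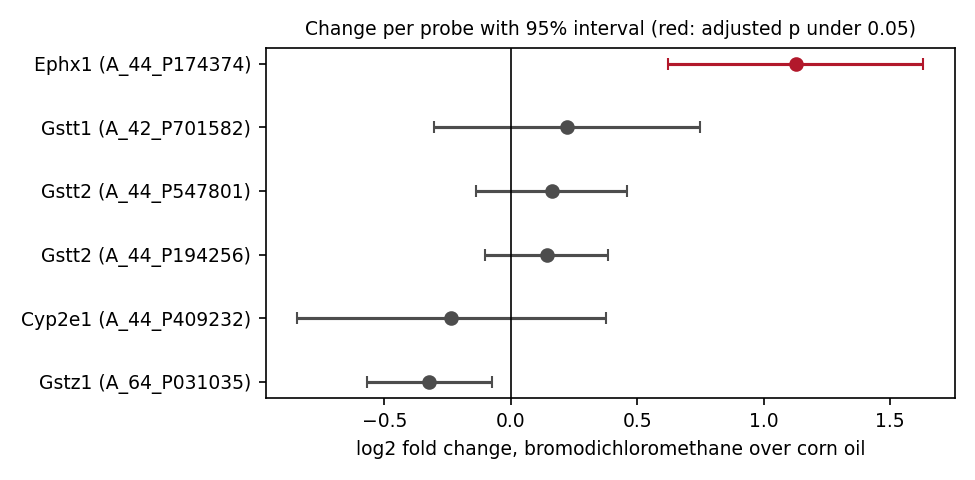
Log2 fold change, bromodichloromethane over corn oil (x axis), of each of the 6 member probes (y axis, gene and probe name) with its 95% interval from limma, fitted with every probe as a feature; red marks an adjusted p under 0.05. The Ephx1 interval begins at 0.62, the intervals of Gstt1, Gstt2 and Cyp2e1 include 0, and that of Gstz1 lies below 0 without passing the adjusted test.

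Among the other glutathione transferases, 21 of 22 listed genes were measured. Of these 5 rose, 2 fell and 14 did not pass, where 5.96% of all features passed as higher and 3.41% as lower. The median log2 fold change of the 21 genes was 0.17. The gene with the largest rise was Gstp1, the pi class transferase that marks altered hepatic foci in rats. Its signal was 190, 66.7 and 51.2 in bromodichloromethane livers, against 11.6, 13.5 and 12.3 in corn oil livers (log2 fold change 2.80, SE 0.47, adjusted p = 0.024). Treated replicate 1 was far above the other treated livers, and with slide as a block the value was 3.93. The microsomal Mgst2 was 1.85-fold higher (0.89, SE 0.19, adjusted p = 0.041), and passed in 0 of the 6 fits that left out 1 liver. Called genes of the mu class went both ways. Gstm1, named after its values were seen, was at 0.48 (SE 0.08, adjusted p = 0.024), whereas Gstm6, a dim probe, was at -1.19 (SE 0.21, adjusted p = 0.027) and Gstm7 at -1.10 (SE 0.20, adjusted p = 0.028). Probes of alpha and mu class genes may share signal between close relatives, which was not tested.

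Gstz1 was lower in every treated liver than in any corn oil liver, by a small amount that did not pass the adjusted test. The signals were 102, 98.1 and 105 in bromodichloromethane livers, against 127, 116 and 141 in corn oil livers. Means were 102 ± 3.71 in treated livers and 128 ± 12.8 in corn oil livers (SD, n = 3 each), and the spread was wider in corn oil animals. The log2 fold change was -0.32 (SE 0.10, 95% interval -0.57 to -0.07), with an unadjusted p of 0.019 and an adjusted p of 0.11. Over all features 3.41% passed as lower. Groups that did not overlap in this direction were found for 16% of all features, so that the separation is no result about Gstz1. On slide 1 alone the value was -0.32, whereas with spike-in scaling it was 0.16, and no direction in absolute terms can be given.

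Gstz1 acts in tyrosine breakdown between Hgd and Fah. Of 7 other genes of or near that route, all measured, none rose, 1 fell and 6 did not pass. Over all features 3.41% passed as lower, and 1 call among so few genes says nothing about the list. The median log2 fold change of the 7 genes was -0.36, and 0.13 with spike-in scaling. Hgd, homogentisate dioxygenase, which makes the substrate of GSTZ1, had signals of 81.2, 72.3 and 79.0 in bromodichloromethane livers, against 102, 105 and 102 in corn oil livers. The log2 difference was -0.41 (SE 0.09, adjusted p = 0.038), but 0.07 with spike-in scaling. It did not pass in any of the 6 fits that left out 1 liver. The fall of Hgd is thus a fall relative to the other transcripts.

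Cyp2e1 showed no settled direction. Its signal was 335, 170 and 251 in bromodichloromethane livers, against 326, 256 and 278 in corn oil livers. Treated replicate 1 was the highest of the 6 livers and treated replicate 2 the lowest, so the treated group enclosed all corn oil values. The means were 252 ± 82.4 in treated livers and 287 ± 35.9 in corn oil livers (SD, n = 3 each). The log2 fold change was -0.23 (SE 0.25, 95% interval -0.85 to 0.38, adjusted p = 0.60), at 0.23 on slide 1 alone, 0.25 with spike-in scaling and 0.02 without treated replicate 2.

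Other P450s that can oxidise haloforms and the proteins that pass them electrons went down or did not pass. Of 10 listed genes 9 were measured, with none higher, 3 lower and 6 not past, and a median of -0.16. The share of all features that passed was 5.96% as higher and 3.41% as lower. Cyp3a2, a male-predominant P450 of rat liver, had signals of 159, 79.4 and 179 in bromodichloromethane livers, against 495, 398 and 424 in corn oil livers (log2 fold change -1.74, SE 0.31, adjusted p = 0.026). Cyp1a2, a P450 of arylamines, stood at 13.2, 14.1 and 15.6 in treated livers and at 34.0, 47.8 and 27.4 in corn oil livers (-1.31, SE 0.21, adjusted p = 0.021). Cyp2b1, the phenobarbital-inducible P450, was at -0.44 (SE 0.10, adjusted p = 0.044), and at 0.04 with spike-in scaling. Its signal may include that of its near-identical relative Cyp2b2, and this sharing was not tested. The probe of Cyp2b2, named after its values were seen, gave 61.7, 56.6 and 62.4 in treated livers. In corn oil livers it gave 70.6, 33.7 and 34.8, and it did not pass (0.47, SE 0.29, adjusted p = 0.35). Por, the P450 reductase, named after its values were seen, was at -0.0094 (SE 0.11, adjusted p = 0.97).

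Cyp2e1 is a gene of the pericentral zone, and 12 other genes of that zone were all measured. None rose, 4 fell and 8 did not pass, with a median of -0.34, and 0.14 with spike-in scaling. Over all features 3.41% passed as lower. The 4 include Cyp1a2, which was already counted and described among the P450s, so the counts of these lists are not independent. Slc1a2, which takes up glutamate, had a log2 difference of -3.36 (SE 0.68, adjusted p = 0.036). Its signal was 0.273, 0.0413 and 0.0749 in bromodichloromethane livers, against 1.04, 1.29 and 0.686 in corn oil livers. The log2 difference was -1.83 with slide as a block, where it did not pass, and -2.47 with normexp background correction. With 1 liver left out it lay between -4.13 and -2.76, and Slc1a2 passed in 1 of those 6 fits. Oat, ornithine aminotransferase, had signals of 6.72, 5.31 and 5.94 in bromodichloromethane livers, against 59.3, 54.9 and 28.1 in corn oil livers (-2.92, SE 0.29, adjusted p = 0.0082). Glul, glutamine synthetase, was at -1.14 (SE 0.21, adjusted p = 0.029); it was at -0.69 with slide as a block (adjusted p = 0.11) and passed in 1 of the 6 fits that left out 1 liver. Of the 12 genes, 6 lay lower in treated livers without overlap, beside 16% of all features, and 1 lay higher. The higher one was Rhbg, an ammonium transporter named after its values were seen, at 1.21 (adjusted p = 0.080).

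**Figure D3:**
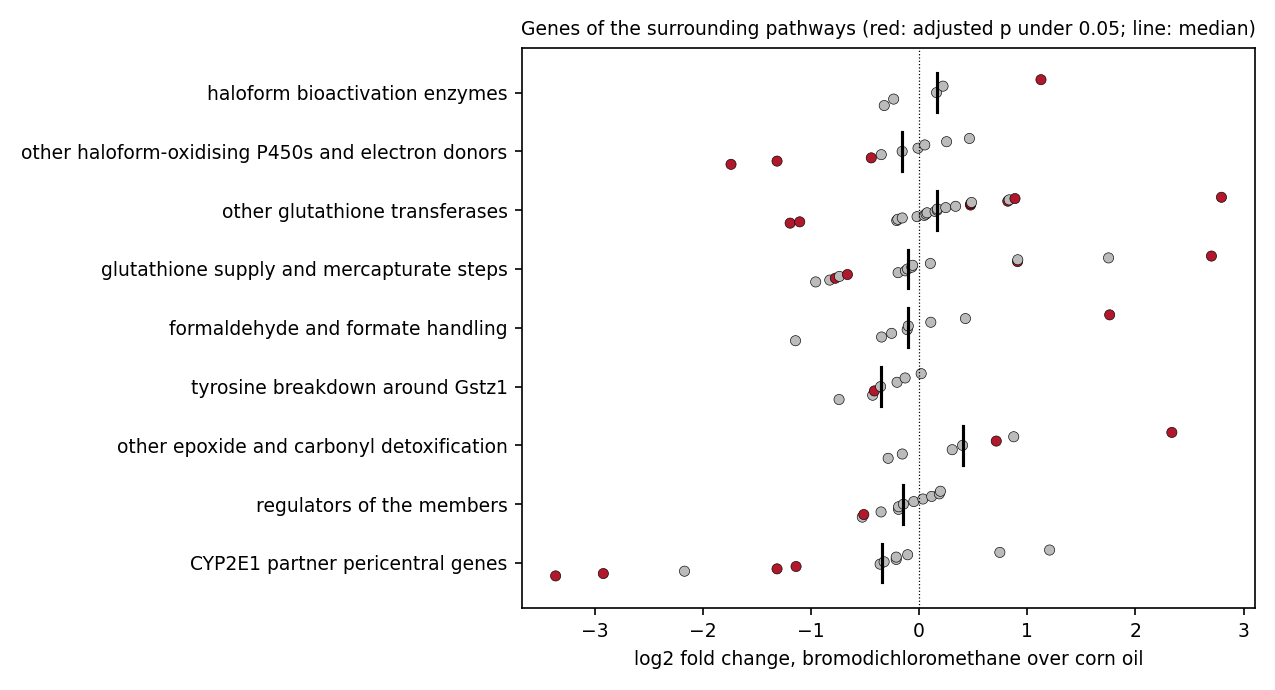
Log2 fold change, bromodichloromethane over corn oil (x axis), of each measured gene in the enzyme set and in 8 lists of related genes (y axis); red points passed an adjusted p of 0.05, grey points did not, and black lines are medians. Of 89 measured genes in the lists, 10 lie to the right and 12 to the left among those that passed, and Ephx1 is the only red point in the top row. Cyp1a2 is drawn in both the P450 row and the pericentral row.

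Glutathione feeds the theta and zeta reactions. Of 16 genes of its supply and of mercapturate formation 15 were measured, and 2 rose, 2 fell and 11 did not pass, with a median of -0.11. Among all features 5.96% passed as higher and 3.41% as lower. Ggt1, the gamma-glutamyltransferase that starts the breakdown of glutathione conjugates, had signals of 0.465, 0.971 and 0.871 in bromodichloromethane livers, against 0.1005, 0.0928 and 0.153 in corn oil livers. The rise was 6.51-fold, or 2.70 in log2 terms (SE 0.33, adjusted p = 0.012), and 1.93 with normexp background correction and 2.05 with slide as a block. Gsr, glutathione reductase, stood at 1.35, 1.42 and 1.37 in treated livers and at 0.668, 0.742 and 0.800 in corn oil livers (0.91, SE 0.10, adjusted p = 0.0095). Dpep1, a dipeptidase of mercapturate formation, was at -0.77 (SE 0.15, adjusted p = 0.033), and Cbs, which starts cysteine synthesis from homocysteine, at -0.66 (SE 0.11, adjusted p = 0.023). Gclc and Gclm, the subunits of the enzyme that limits glutathione synthesis, were at 0.11 (SE 0.26) and -0.13 (SE 0.30). Neither passed (adjusted p = 0.83 for each), and both were named after their values were seen. Gclm was read by a dim probe, with signals of 0.0424, 0.0547 and 0.0384 in treated livers and 0.0319, 0.0507 and 0.0714 in corn oil livers. It was well above background in 3 treated livers and in only 2 corn oil livers, so its value says little about that subunit.

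Conjugation of some halogenated methanes by theta transferases can release formaldehyde, and whether bromodichloromethane did so here was not measured. Among 8 measured genes of formaldehyde and formate handling, 1 rose, none fell and 7 did not pass, with a median of -0.10. Over all features 5.96% passed as higher. The one that rose was Mthfd1l, the mitochondrial formyltetrahydrofolate synthetase. It was well above background in 3 treated livers and in only 1 corn oil liver, so that it was kept in the test through the treated livers, and 2 of the 3 corn oil signals were not well above background. The log2 fold change was 1.76 (SE 0.27, adjusted p = 0.019), or 0.54 with normexp background correction. The call is no support for a change of the list. Among 11 candidate regulators of the members, none rose, 1 fell and 10 did not pass, with a median of -0.14. As lower, 3.41% of all features passed, and 1 call among so few genes says nothing about the list. The one that fell was Rxra, the partner of many nuclear receptors, at -0.51 (SE 0.10, adjusted p = 0.032), and -0.03 with spike-in scaling. Nfe2l2, which encodes NRF2, the factor that binds antioxidant response elements, was at 0.20 (SE 0.17, adjusted p = 0.49), and Nr1i3, which encodes the receptor CAR, at -0.52 (SE 0.17, adjusted p = 0.10); both were named after their values were seen.

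Of the 22 genes of these lists that passed, 22 had the same direction on slide 1 alone. The groups did not overlap for any of the 22, so treated replicate 1 lay beyond every corn oil liver. That direction was thus set in advance and is no separate support. With spike-in scaling 20 kept their direction, where Cyp2b1 and Hgd turned and the calls of Gstm6, Dpep1, Cbs and Rxra ended as well. With slide as a random block 21 passed, all but Cyp2b1, and with slide as a fixed block 1 passed, Gstp1 (adjusted p = 0.0054). In the fixed block fit the difference rests on treated replicate 1, whose Gstp1 signal was far above that of the other treated livers. In the fits that left out 1 liver, 6 genes passed in none (Cyp2b1, Gsta1, Gstm1, Hgd, Mgst2 and Nqo1), and Oat was the one gene called whichever of the 6 livers was left out.

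Among the markers only Epcam, Cd3e, Lyve1 and Serpina1 were called, beside 9.36% of all features called in either direction. So few calls say nothing about any cell type as a whole. The summed signal of 5 measured cholangiocyte markers was 2.58 to 3.74 in bromodichloromethane livers and 1.75 to 1.91 in corn oil livers, with 1 of them, Epcam, called higher, and Sox9 not measured. For 5 measured lymphocyte markers the sums were 2.12 to 2.50 in treated livers and 1.61 to 2.08 in corn oil livers, with Cd3e called higher, and Cd79a and Ms4a1 not measured. The 4 measured endothelial markers summed to 37.6 to 40.1 in treated livers and 44.8 to 47.7 in corn oil livers, with Lyve1 called lower, and Stab2 and Clec4g not measured. Hepatocyte markers summed to 3314 to 3713 in treated livers and 3876 to 4377 in corn oil livers, with Serpina1 called lower among 8. Sums of 8 macrophage markers (101 to 134 in treated livers, 111 to 148 in corn oil livers) and of 7 stellate cell and fibroblast markers (24.1 to 24.9 in treated livers, 23.8 to 30.3 in corn oil livers) overlapped, with none called. For 3 measured neutrophil markers the sums were 1.46 to 2.07 in treated livers and 1.02 to 1.37 in corn oil livers, and for 2 red cell markers 121 to 185 in treated livers and 187 to 291 in corn oil livers, with none called. Whether these sums bear on the Ephx1 and Gstz1 differences was not tested.

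**Figure D4:**
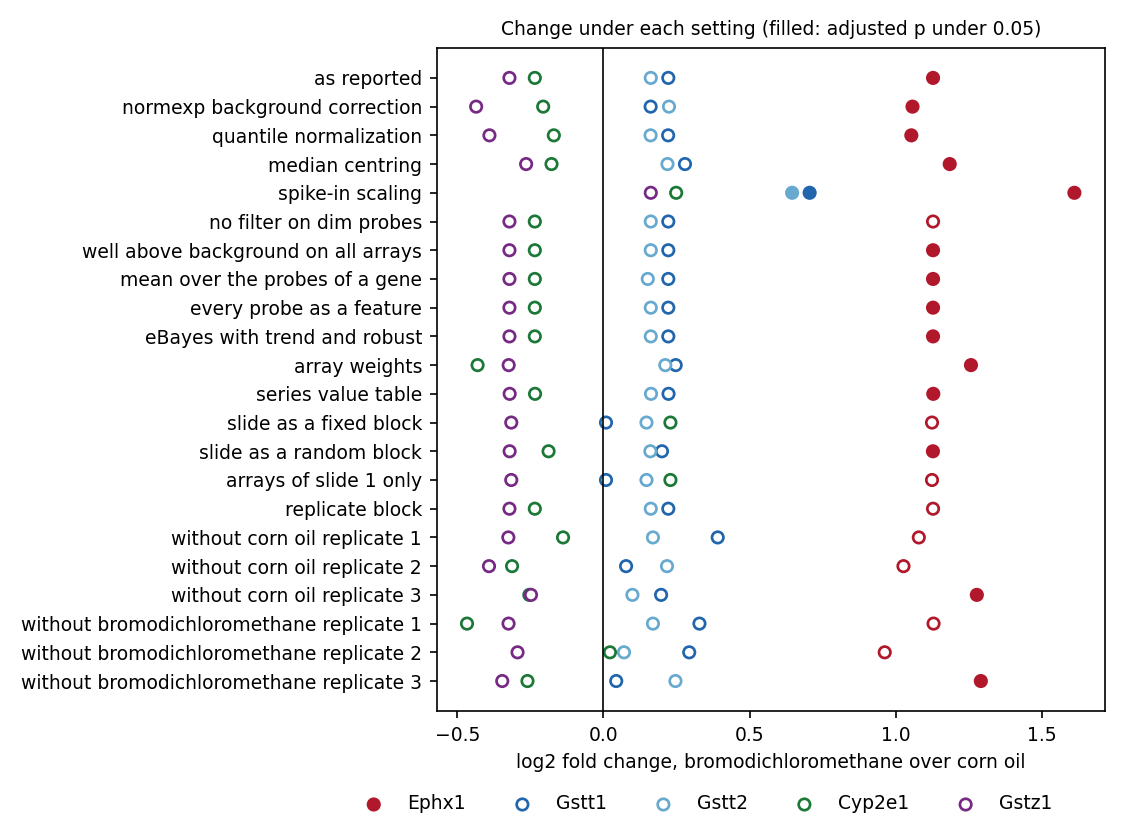
Log2 fold change, bromodichloromethane over corn oil (x axis), of the 5 measured genes as reported and under 21 other settings (y axis); filled points have an adjusted p under 0.05. Ephx1 stays between 0.96 and 1.61 and passes in 13 of the 21, while Cyp2e1 lies on both sides of 0.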

How the data were processed

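The submitters' processing notes name Agilent Feature Extraction 10.7, and per the file headers the array was designed on rn4. Spot values in the deposited files are linear intensity; the processed intensity is background-subtracted and not scaled between arrays, per the file headers. A deposited value table holds a linear ratio, from its values the processed signal over the 75th percentile of the array (at least 96.4% of probes within 1%), and served as an alternative.

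Of 61657 probes, 27 with outlier marks were left out, and 27460 were named by matching unversioned accessions to RefSeq transcripts of GRCr8. Probes well above background on all 3 arrays of a group were kept, and the brightest probe stood for a gene, which left 28995 features. Log2 intensity minus the 75th percentile was compared with limma 3.58.1 in R 4.3.3 (lmFit and eBayes, two-sided tests); p-values were adjusted over every feature by Benjamini-Hochberg, with a threshold of 0.05. SE is the moderated standard error, and intervals at 95% use the same model. Precision is limited by the number of arrays. The model was tested on simulated data without a slide effect, where it recovered 56.8% of 2-fold and 81.2% of 4-fold changes. A gene that did not pass may therefore still have changed. Genes named from a list were the called ones, at most 4, by size of change, or the 2 lowest in p where none was called; others are marked. The members, the lists and the settings were chosen with earlier results of these data known. Normexp used the median spot and local background signals with an offset of 50.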

Additional observations from a re-analysis of the deposited data

How the results depend on the processing

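Fits were repeated with normexp, quantile, median and spike-in scaling, other filters and probe summaries, other variance models, the value table, slide or replicate as a block, slide 1 alone and 1 liver left out. Ephx1 kept its direction in all 21 and passed in 13. Its groups did not overlap, so its direction was set in advance with 1 liver left out. The same holds on slide 1 alone and with slide as a fixed block, and these fits are no separate support. The log2 fold change of Ephx1 was 1.13 without the filter on dim probes (adjusted p = 0.070) and 1.12 with slide as a fixed block (0.14). It was 1.12 on slide 1 alone, and 0.96 to 1.29 with 1 liver left out. Gstt1 and Gstt2 passed only with spike-in scaling, at 0.71 and 0.65, and with 1 liver left out lay at 0.04 to 0.39 and 0.07 to 0.25. Gstz1 passed in none and turned to 0.16 with spike-in scaling, against -0.39 to -0.25 with 1 liver left out. Cyp2e1 passed in none and was at 0.25 with spike-in scaling, 0.23 with slide as a fixed block and 0.23 on slide 1 alone, and -0.47 to 0.022 with 1 liver left out.

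Features past the threshold numbered 2715, against 12996 with spike-in scaling, 609 without the filter, where 45862 features were tested, 4126 with array weights, 350 with slide as a fixed block, 120 on slide 1 alone and 335 to 1232 with 1 liver left out. Higher calls made up 63.6%, against 74.2% with median centring, 97.6% with spike-in scaling and 43.3% on slide 1 alone, where fewer arrays were used. Called genes of the lists numbered 22, against 38 with spike-in scaling, 4 without the filter, 1 with slide as a fixed block, 1 on slide 1 alone and 2 to 10 with 1 liver left out. Beyond fewer arrays or more features tested, the cause of these shifts was not tested.

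The replicate numbers of the labels are shared by the groups, but deviations of same-numbered livers correlated at only 0.09, 0.02 and 0.12, so the samples share a number and no pairing was assumed, although each liver correlated best with its own number. With the replicate block 353 features and 3 list genes passed, and Ephx1 stood at 1.13 (adjusted p = 0.091).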

Other observations

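The theta transferase genes lie side by side on rat chromosome 20 in the assembly used for names, and their measured neighbours, looked at after the member values were seen, gave mixed values. Mif, a cytokine gene near Gstt2, rose by 0.51 in log2 terms (SE 0.10, adjusted p = 0.035). Ddt, D-dopachrome tautomerase, a gene near Gstt3, was at -0.10 (SE 0.09, adjusted p = 0.48). Smarcb1, Derl3 and Cabin1 were at 0.21, 0.12 and 0.18 and did not pass (adjusted p = 0.16, 0.80 and 0.35).

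Ephx2, the soluble epoxide hydrolase, was chosen after its values were seen because its spread between animals was wide. Its signal was 8.41, 3.77 and 3.05 in bromodichloromethane livers, against 0.476, 4.77 and 6.88 in corn oil livers. Corn oil replicate 1 was far below the other 5 livers, and the log2 fold change was 0.88 (SE 1.03, adjusted p = 0.63).

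Over the 6 arrays, and among 11404 other named features, the signal of Ephx1 followed most closely those of Shc4 and Rars2 (Pearson r = 0.997 and 0.993). For Gstz1 the closest were Bbox1 and Ush1c (0.993 and 0.992), for Cyp2e1 Sdhaf2 and Ndufb4 (0.992 and 0.988), for Gstt1 Lias and C10h1orf35 (0.997 and 0.986) and for Gstt2 Mycbpap and Mrpl38 (0.983 and 0.980). After subtraction of the group means the closest to Ephx1 were Gnb3 and Vars2 (0.994 and 0.993), to Gstz1 Or1j14 and Palmd (0.992 and 0.990), to Cyp2e1 Sec61g and Mrpl2 (0.996 and 0.995), to Gstt1 Mrps12 and Lias (both 0.996) and to Gstt2 Aida and Tmem243 (0.997 and 0.993). These are the highest of many values over few arrays, which share their livers and hybridisations, and are given as a description.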
